A study of Mus musculus with 8 samples.

Results

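The genes described here are 39 mouse counterparts of genes whose promoters become methylated in human colorectal tumours, either as panel genes of the CpG island methylator phenotype or as markers used to detect the cancer. They were followed in organoids from the proximal colon of Braf+/LSL mice, which carry a silent BrafV600E allele that Cre recombinase switches on. A member's tiles were all 200 bp windows of the genome that overlapped its RefSeq span in GRCm38 or the 2 kb on either side. All 39 symbols matched 1 gene each among 21887 protein-coding genes. Of these 39, 35 had a listed tile and 4 (Chfr, Ppp1r14d, Tfpi2 and Mal) had 0 tiles in every table. The share of all genes without a tile was not counted.

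Methylation was read by reduced representation bisulfite sequencing, which samples CpG-rich restriction fragments, in 8 libraries that fall into 4 groups of 2, with organoid lines 1 and 3 in each group. The first group carried BrafV600E switched on by lentiviral Cre, was 5 months in culture, and grew in Base medium, a medium without niche factors in which such organoids had been selected. Its control group had received the lentiviral backbone alone (empty vector) and grew in full medium for 5 months. The other groups, also empty vector in full medium, were aged for 12 months in line 1 and 14 months in line 3, with organoids of 2 months as their controls. All groups carry the heterozygous Cre-activable allele, come from male mice about 40 days old, and had a final culture of 3 weeks. For 2 libraries the labels conflict: the source name of the line 1 BrafV600E library gives line 3, and the 14-month library is tagged 2 months. Titles were followed for both, and counts from each line alone are given below.

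The deposited values are the authors' comparisons of 1 library with 1 library of the same line. They list tiles that differed by 20 percentage points or more with a q-value up to 0.01, and the 4 comparisons hold 8263 to 29949 tiles. An absent tile may be unchanged or uncovered, read depth is unknown, and no tile has a replicate check within its line, so the lines are the only replicates. A tile that starts unmethylated can only be listed as a gain. Oncogene and medium changed together in the BrafV600E comparison and cannot be told apart. In bulk DNA, more methylated cells and more methylation per cell cannot be told apart either. The files hold no expression values, so neither the tissue label nor transcription of these genes was checked.

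In human colorectal cancer, the methylator phenotype is the joint methylation of many promoter CpG islands, and it is closely tied to the BRAF V600E mutation. A CpG island is a stretch rich in the dinucleotide CG that is normally unmethylated at active and silent promoters alike, and its methylation accompanies stable silencing. Panel genes such as CACNA1G, RUNX3, SOCS1 and CRABP1 define the phenotype in human tumours. Others, such as VIM, NDRG4, BMP3, SDC2, TFPI2, IKZF1 and BCAT1, are read in stool or blood tests. Both roles are known from human samples, and the mouse genes need not share them.

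The promoters shown here are those in which a listed tile had 1 direction in both lines of a comparison, which was so in 4 promoter windows, all with gains in long culture. Tmeff2 was added after its values were seen, since its promoter changed in opposite directions in the comparisons of line 3. It was not alone in this. A window of Mgmt (-64.7 and 59.3 points) and another window of Ndrg4 (-36.9 and 36.6) also lost with BrafV600E and gained with long culture in line 3. Each is the RefSeq window in GRCm38.p6 from 250 bases before to 50 after a start site, read 5′ to 3′ on the + strand, with CG dinucleotides in capitals. They lie at chr8:95678022-95678321 (Ndrg4), chr16:37776805-37777104 (Fstl1), chr4:135152295-135152594 (Runx3), chr11:11685675-11685974 (Ikzf1) and chr1:50927273-50927572 (Tmeff2).
Ndrg4: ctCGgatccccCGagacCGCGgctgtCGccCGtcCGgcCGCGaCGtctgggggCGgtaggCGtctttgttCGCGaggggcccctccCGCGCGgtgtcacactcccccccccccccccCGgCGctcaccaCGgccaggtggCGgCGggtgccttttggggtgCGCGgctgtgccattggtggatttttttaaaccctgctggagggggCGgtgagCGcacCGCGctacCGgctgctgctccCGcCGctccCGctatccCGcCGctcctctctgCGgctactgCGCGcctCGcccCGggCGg
Fstl1: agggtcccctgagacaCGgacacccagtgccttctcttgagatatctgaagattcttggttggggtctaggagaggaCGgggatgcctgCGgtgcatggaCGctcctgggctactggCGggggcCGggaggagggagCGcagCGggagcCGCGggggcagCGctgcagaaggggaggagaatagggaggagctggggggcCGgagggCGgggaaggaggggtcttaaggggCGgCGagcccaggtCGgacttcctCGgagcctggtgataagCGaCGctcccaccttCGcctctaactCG
Runx3: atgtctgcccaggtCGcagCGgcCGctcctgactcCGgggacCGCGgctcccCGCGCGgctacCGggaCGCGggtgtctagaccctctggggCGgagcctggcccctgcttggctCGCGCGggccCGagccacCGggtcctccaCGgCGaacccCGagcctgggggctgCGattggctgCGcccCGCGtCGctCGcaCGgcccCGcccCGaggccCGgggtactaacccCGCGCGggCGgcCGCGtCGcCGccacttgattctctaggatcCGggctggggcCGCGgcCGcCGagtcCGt
Ikzf1: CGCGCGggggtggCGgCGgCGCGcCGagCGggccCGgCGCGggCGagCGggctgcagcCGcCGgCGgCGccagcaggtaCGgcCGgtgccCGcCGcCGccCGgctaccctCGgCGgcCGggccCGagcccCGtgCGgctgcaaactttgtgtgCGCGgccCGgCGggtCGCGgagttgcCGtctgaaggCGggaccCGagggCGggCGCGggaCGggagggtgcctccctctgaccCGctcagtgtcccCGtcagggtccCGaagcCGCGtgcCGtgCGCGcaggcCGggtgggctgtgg
Tmeff2: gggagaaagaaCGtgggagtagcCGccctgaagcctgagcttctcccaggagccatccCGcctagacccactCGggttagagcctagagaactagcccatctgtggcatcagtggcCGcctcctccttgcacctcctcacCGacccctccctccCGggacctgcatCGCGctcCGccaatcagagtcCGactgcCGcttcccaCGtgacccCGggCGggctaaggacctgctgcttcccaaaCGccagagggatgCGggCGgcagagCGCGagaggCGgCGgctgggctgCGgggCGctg

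The windows hold 40 CG dinucleotides in Ndrg4, 21 in Fstl1, 45 in Runx3, 52 in Ikzf1 and 24 in Tmeff2. CG reads the same on both strands and was counted with no other motif. Of the 39 genes, 30 have an entry in the promoter table, with 42 windows in all. The median was 19 CG per window in these 42, against 13 in all 21263 windows of 17492 protein-coding genes. At least 15 CG stood in 61.9% of the members' windows, against 46.8% of all windows. Cacna1g, Thbs1, Bmp3, Sdc2, Eya2, Wrn, Cdh13, Penk and Fli1 had no entry.

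In the BrafV600E comparison, gains outnumbered losses among the members in both lines, narrowly in line 3. In line 3 the gained share was 49.1% of 116 tiles without Runx3. It was 48.6% of 70 tiles there with differences of at least 40 points, and 47.4% after tiles within 500 bp were merged. The deposited tables list 58 gained and 18 lost member tiles in line 1, which is 76.3% gained (exact Clopper-Pearson 95% interval 65.2 to 85.3), and 70 gained and 60 lost in line 3, 53.8% (44.9 to 62.6). In the same windows of all genes, the gene plus 2 kb, the gained share was 72.1% in line 1 and 47.4% in line 3, both inside the members' intervals. Over all listed tiles, those between genes included, it was 67.5% in line 1 and 40.4% in line 3. Median sizes of the members' gains were 39.8 and 39.5 points in lines 1 and 3, against 42.8 and 44.1 points for all gains. Neighbouring tiles are not independent, so these intervals cover counting error only and are too narrow.

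Counted by gene, a member was called gained in a line if at least 1 of its tiles gained and none lost, lost in the reverse case, and mixed otherwise. With BrafV600E, 18 of 39 members were gained in line 1 and 12 in line 3, against a background of 13.3% and 12.1% of all genes. Lost members numbered 5 in line 1 and 7 in line 3, where the background was 6.00% and 11.5%. In both lines 8 members were gained (background 4.31%) and 3 were lost (background 1.69%). A further 8 members in line 1 and 13 in line 3 were mixed. Rassf1, with the 4 members named above, had 0 tiles in either line. Mixed calls and absent tiles were not counted over all genes, so these numbers have no background. The members are longer than most genes, with a median length of 59462 bp against 17169 bp, and a longer window can hold more tiles, so part of the distance from the background was not tested.

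**Figure D1:**
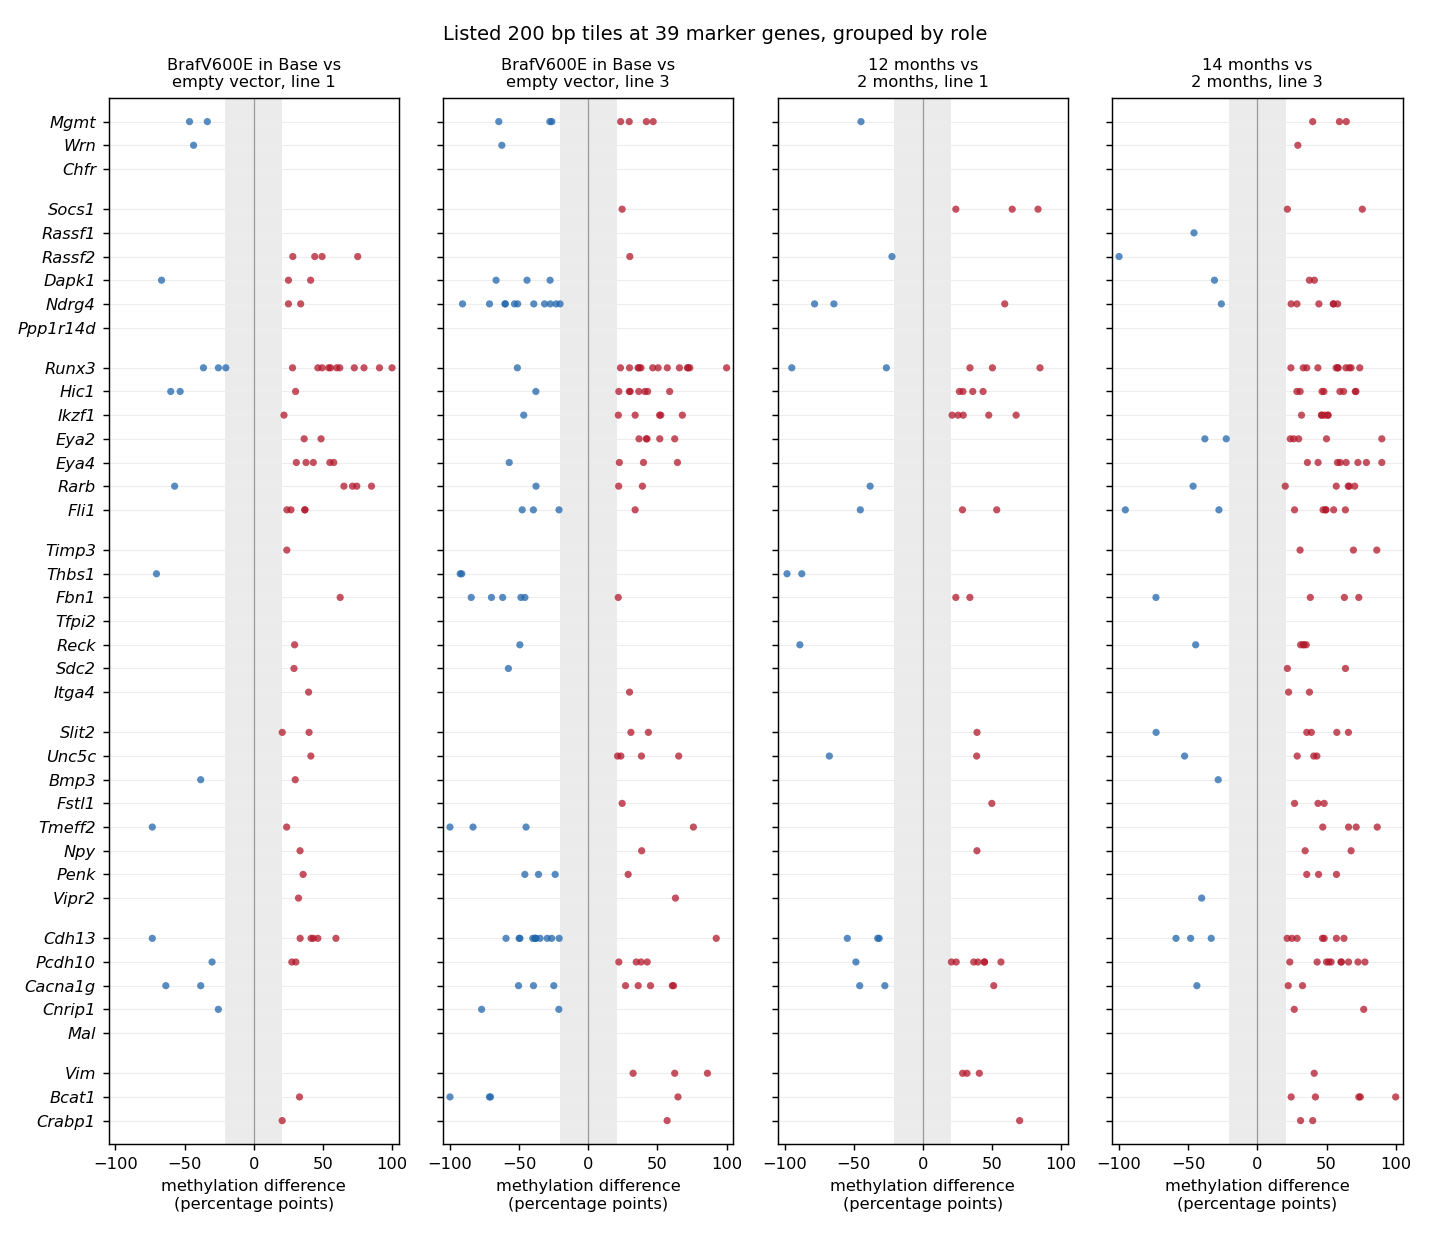
Each point is 1 listed tile of a marker gene (rows, grouped by role), placed by its deposited methylation difference in percentage points (x axis), red for gains and blue for losses, in each of the 4 within-line comparisons (panels). The grey band marks differences under 20 points, which the tables do not list. The 14-month panel holds 125 gains and 19 losses, while the line 3 BrafV600E panel holds 70 gains and 60 losses.

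Among the 3 genes of DNA repair and mitotic checkpoint control, no member was called gained with BrafV600E. Wrn, a RecQ-family helicase (chromosome 8, 33234372 to 33385543), lost methylation at a single tile beyond its upper end, chr8:33386601-33386800, at -43.5 points in line 1, and the authors' deposited table for line 3 gives -62.5 points. That tile also lies within 2 kb of Purg, and the genes cannot be told apart there. Mgmt, which removes alkyl groups from guanine and is a classic silenced gene of human colon tumours, had 2 lost tiles in line 1, at -46.4 and -33.6 points. In line 3 it had 4 gained and 3 lost tiles, including a loss of -64.7 points at its start. No Mgmt tile was listed in both lines.

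Of the 6 signalling and growth-control genes, Rassf2 was gained in both lines and Ndrg4 had opposite calls. Rassf2, a Ras-association protein that restrains Ras signalling (chromosome 2, 131992850 to 132030416), gained 75.2, 49.4, 28.3 and 44.1 points at 4 adjacent tiles in line 1, per the deposited table. Line 3 listed the last of these tiles, with a gain of 30.04 points. The run lies 824 to 1424 bp downstream of the start site, inside the gene, measured here and below to tile centres. Ndrg4, whose promoter is read in human stool tests (chromosome 8, 95676974 to 95714956), gained 33.9 and 25.1 points at 2 tiles in line 1. In line 3 it had 11 lost tiles and 0 gained, from -20.4 to -90.9 points, spread over the whole gene, with a mean of -48.1 points. No Ndrg4 tile was listed in both lines, so these directions stand at different positions. Socs1, an inhibitor of JAK-STAT signalling, had 1 gain of 24.5 points, in line 3, and Dapk1, a death-associated kinase, gained 25.1 and 41.1 points near its start in line 1 while its other 4 listed tiles lost, 1 in line 1 and 3 in line 3.

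The 7 transcription genes held the largest number of gained tiles of any role group, 28 gained and 6 lost in line 1 and 36 gained and 8 lost in line 3. Runx3, a Runt-domain factor of the TGF-beta pathway (chromosome 4, 135120645 to 135177990), held more of them than any other member of the group. In line 1 it had 11 gained tiles with a mean of 63.6 points and 3 lost tiles, and in line 3 it had 13 gained tiles with a mean of 53.9 points and 1 lost tile, in the authors' deposited tables. Of 10 Runx3 tiles listed in both lines, 9 gained in both.

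Those shared gains sit away from the inner promoter printed above, 1 of them upstream of it, at 49.4 points in line 1 and 23.3 points in line 3. From 2355 to 3555 bp downstream of that start site, 5 tiles gained 46.4, 54.1, 28.1, 90.9 and 100 points in line 1 and 71.7, 50.5, 65.9, 57.1 and 72.2 points in line 3. Near the upper end of the gene, 3 more tiles gained 60.0, 79.7 and 62.2 points in line 1 and 73.4, 46.6 and 29.8 points in line 3, per the deposited tables. Near the inner start site the lines listed different tiles. Line 1 lost -25.6, -20.2 and -36.4 points at 3 tiles between 245 bp upstream and 955 bp downstream of it. Line 1 also gained 72.7 points farther upstream, at chr4:135151401-135151600, a tile that overlaps the window within 1 kb of the start site. Line 3 gained 38.1 and 36.8 points at 2 other tiles, 355 and 1155 bp downstream, the second outside that window. Within 1 kb of a start site Runx3 was thus mixed in line 1 and gained in line 3.

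**Figure D2:**
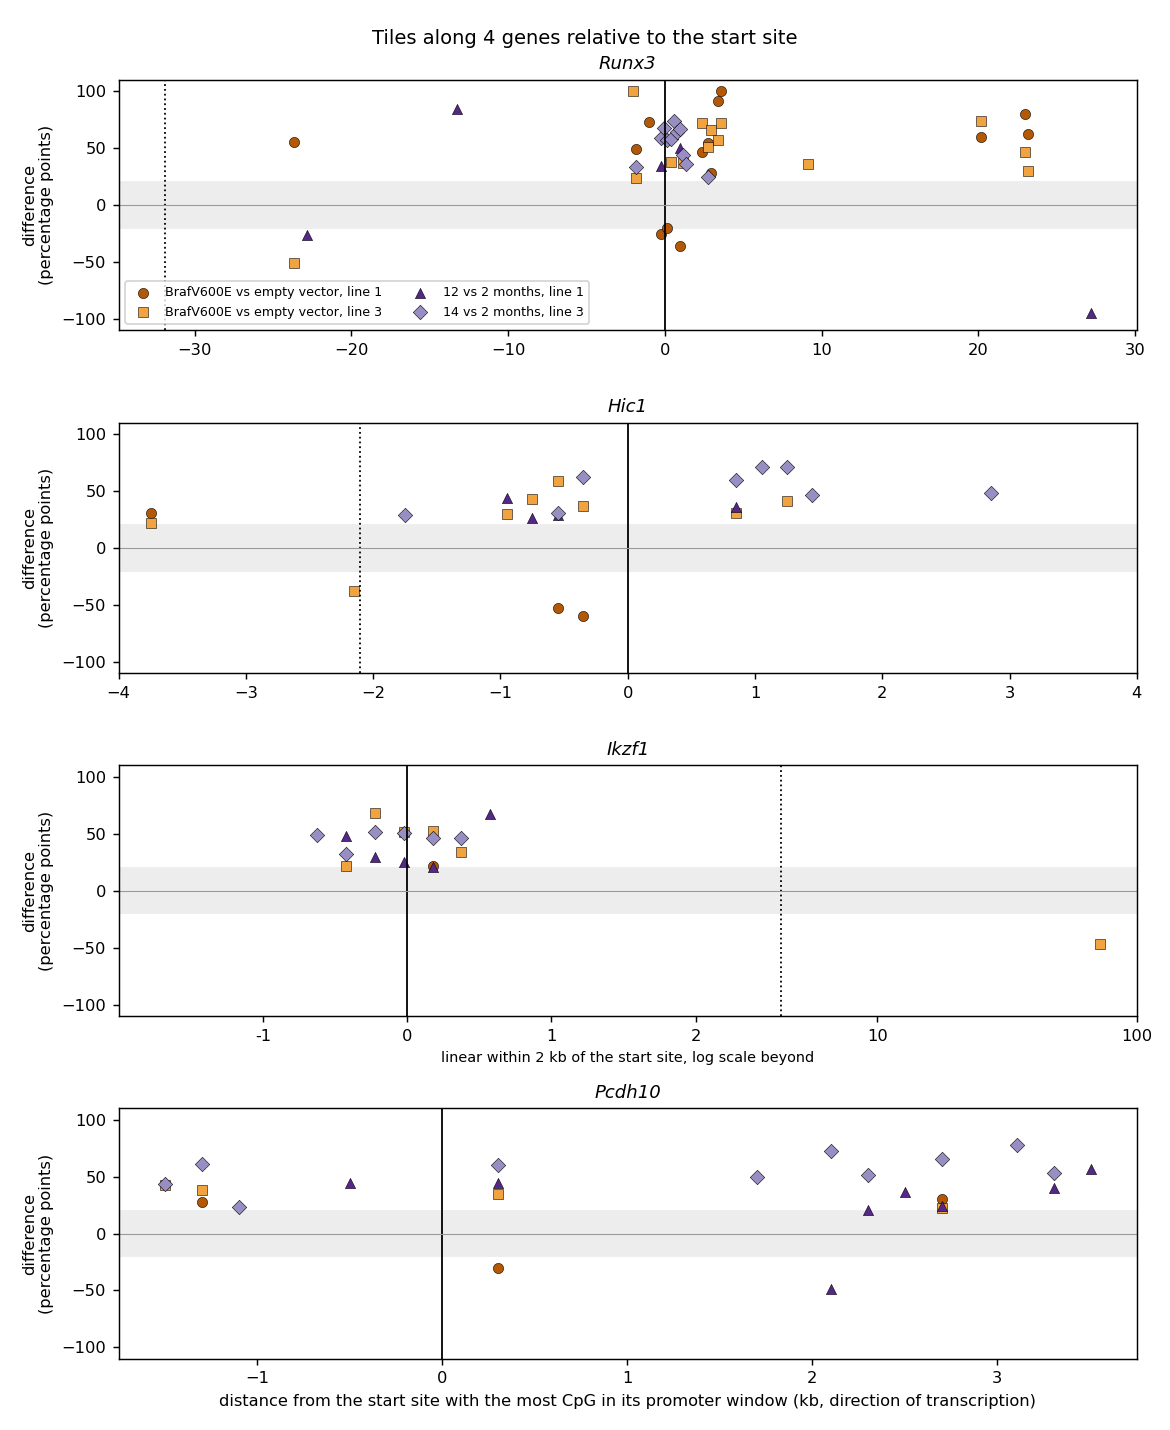
Deposited methylation difference (y axis, percentage points) of each listed tile of Runx3, Hic1, Ikzf1 and Pcdh10 against its distance in kb from the start site with the most CG in its promoter window (x axis, direction of transcription; solid line at 0, dotted lines at other start sites). Circles and squares are BrafV600E in lines 1 and 3, triangles and diamonds long culture in lines 1 and 3. Runx3 tiles of the 14-month library form a row of 9 gains over the inner start site, while 5 tiles that gained in both lines with BrafV600E lie 2355 to 3555 bp downstream.

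Eya2 and Eya4 encode phosphatases that act as transcription coactivators. Eya2 (chromosome 2, 165595028 to 165771727) had 2 gained tiles in line 1, at 48.7 and 36.5 points, and 5 in line 3, from 36.7 to 62.5 points, with 0 lost. The tile chr2:165595201-165595400, at the lower end of the gene, gained in both, by 36.5 and 41.9 points in lines 1 and 3 of the deposited tables. Eya4 had 5 gained tiles in line 1 (mean 44.9 points) and 3 in line 3 (mean 42.3), and was mixed in line 3 through 1 loss of -57.1 points 51990 bp downstream of its nearest start site. Ikzf1, the lymphoid zinc finger factor Ikaros, gained 21.9 points at 1 tile in line 1, while line 3 gained 21.8, 68.0, 51.6, 52.4 and 33.9 points at 5 adjacent tiles over the start site and lost 1 tile far downstream.

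Hic1, a zinc finger repressor (chromosome 11, 75161377 to 75170255), went in opposite directions in the lines at 2 of 3 shared tiles. At positions -348 and -548 bp from the inner start site it lost -60.0 and -53.2 points in line 1 and gained 36.5 and 58.9 points in line 3, in the authors' deposited tables. The remaining shared tile gained 30.3 points in line 1 and 22.1 points in line 3. Rarb, a retinoic acid receptor, gained 71.4, 65.2, 74.5 and 85.2 points at 4 tiles about its start site in line 1, and line 3 listed 2 of these tiles, at -37.8 and 22.0 points. The other shared tile, chr14:17064201-17064400, lost -57.2 points in line 1, which made Rarb mixed there, and gained 39.1 points in line 3. Fli1, an ETS-family factor, had 4 gained tiles in line 1 and 1 gained and 3 lost tiles in line 3.

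Among the 7 matrix genes and protease inhibitors, line 1 had 5 gained and 1 lost, and line 3 had 1 gained, 3 lost and 1 mixed. Over all genes the lost share was also larger in line 3 than in line 1, at 11.5% against 6.00%. Gained genes still outnumbered lost ones among all genes in line 3, at 12.1%, and the difference between lines was not tested. Itga4, an integrin alpha chain (chromosome 2, 79255426 to 79333114), was the member gained in both lines, by 39.7 points in line 1 and 29.8 points in line 3 at neighbouring tiles over its start. Thbs1, a matrix glycoprotein that restrains angiogenesis (chromosome 2, 118111876 to 118127133), was lost in both lines. Its tile chr2:118113001-118113200 lost -70.3 points in line 1 of the deposited tables. In line 3 this tile lost -91.5 points, and the adjacent one lost -92.6 points. Reck, a membrane-anchored inhibitor of matrix metalloproteinases, had 1 tile in each line, the same one, chr4:43918201-43918400, which gained 29.6 points in line 1 and lost -49.5 points in line 3. Sdc2, a heparan sulphate proteoglycan, gained 29.1 points at its lower end in line 1 and lost -57.8 points at an internal tile in line 3. Fbn1 (fibrillin) gained 62.5 points at its promoter in line 1. In line 3 it had 5 lost tiles and 1 gained, including a loss of -45.8 points at another tile of the same promoter window. Timp3 gained 23.9 points in line 1 at a tile that also lies within 2 kb of Syn3.

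Secreted factors and their receptors were the group with the most members gained in both lines. Slit2, Unc5c, Npy and Vipr2 were gained in each line, and no member of the 8 was called lost in either. Slit2, the ligand of Robo receptors, gained 40.0 and 20.6 points in line 1 and 30.8 and 43.5 points in line 3, at different tiles. Unc5c, a netrin receptor (chromosome 3, 141465564 to 141834924), gained 41.3 points at 1 tile in line 1 and 21.2 to 65.4 points at 4 tiles in line 3, and the tile 936 bp downstream of its start was listed in both. Npy, the precursor of neuropeptide Y (chromosome 6, 49822710 to 49829507), gained 33.5 points at its start in line 1 and 38.6 points 990 bp downstream in line 3, in the deposited tables. Vipr2, a receptor for vasoactive intestinal peptide, gained 32.4 points in line 1 and 63.0 points in line 3 at 1 tile, chr12:116078401-116078600. Fstl1, a secreted glycoprotein, gained 24.5 points in line 3 alone. Penk, the enkephalin precursor, gained 35.7 points in line 1, while in line 3 that tile lost -36.0 points with both adjacent upper tiles and a separate tile gained 28.8 points. Bmp3, a bone morphogenetic protein, and Tmeff2 were mixed in line 1, with 1 gain and 1 loss each. In line 3 Bmp3 had 0 tiles, and Tmeff2 had 3 lost tiles about its start and 1 gained far downstream.

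Among the 5 adhesion and membrane genes no member was gained in both lines, and the tiles came to 7 gained and 5 lost in line 1 and 10 gained and 16 lost in line 3. Cnrip1, which binds the tail of a cannabinoid receptor (chromosome 11, 17051859 to 17079372), was lost in both lines, by -25.6 points in line 1 and by -21.3 and -77.1 points in line 3, near its start. Cdh13, an anchored cadherin whose gene spans 1184913 bp, had 5 gained and 1 lost tiles in line 1 and 1 gained and 11 lost tiles in line 3, scattered along the gene. Pcdh10, a protocadherin, gained at 4 tiles in line 3, from 22.1 to 42.6 points, and had 2 gains and 1 loss in line 1. Cacna1g, a T-type calcium channel gene of the human panel, had 2 losses in line 1 and 5 gains and 3 losses in line 3.

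Of the last group, Crabp1, a retinoic acid binding protein (chromosome 9, 54764748 to 54773110), gained 20.6 points in line 1 and 57.0 points in line 3 at the same tile. Vim, the intermediate filament gene vimentin, gained 62.5, 32.4 and 86.2 points at 3 adjacent tiles over its start in line 3, and line 1 listed 0. Bcat1, a branched-chain aminotransferase, gained 33.1 points at 1 tile in line 1 and had 3 losses and 1 gain in line 3.

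In long culture without the oncogene, gains outnumbered losses among the members in both lines. Of the listed member tiles, 36 gained and 18 lost in line 1, 66.7% (exact Clopper-Pearson 95% interval 52.5 to 78.9), and 125 gained and 19 lost in line 3, 86.8% (80.2 to 91.9). In the gene plus 2 kb of all genes the gained share was 47.9% in line 1 and 78.2% in line 3, both below the members' intervals. Over all listed tiles it was 40.9% in line 1 and 71.9% in line 3. With tiles within 500 bp merged, the members' share was 58.3% (40.8 to 74.5) in line 1 and 75.6% (64.6 to 84.7) in line 3. These wider intervals held the 47.9% and 78.2% of all genes, which were counted without merging. By gene, 9 of 39 members were gained in line 1 and 19 in line 3, where the background was 5.74% and 14.8% of all genes. Lost members numbered 6 and 4, with a background of 8.06% and 6.71%. In both lines 7 were gained (background 3.03%) and 1, Rassf2, was lost (background 1.16%).

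The genes gained in both lines with age were Socs1, Hic1, Ikzf1, Fstl1, Npy, Vim and Crabp1, drawn from 4 of the 7 role groups. Socs1 (chromosome 16, 10783808 to 10785536) gained 83.3, 64.6 and 23.9 points in line 1 and 75.9 and 21.7 points in line 3, with 2 tiles listed in both. Its gain of 75.9 points had a q-value of 5.3e-109 in the authors' deposited table. Hic1 had 4 gained tiles in line 1, from 26.4 to 43.6 points, and 8 in line 3, from 28.6 to 71.2 points, with 0 lost.

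Ikzf1 (chromosome 11, 11684962 to 11772930) changed as a block around its start. Line 1 gained 47.7, 29.2, 25.5 and 21.2 points at 4 adjacent tiles over the printed promoter and 67.5 points at a further tile. Line 3 gained 48.6, 31.9, 51.2, 50.9, 46.4 and 46.4 points at 6 adjacent tiles, per the deposited tables, and 4 tiles were shared. The tile chr11:11686001-11686200 gained in all 4 comparisons, by 21.9 and 52.4 points with BrafV600E and 21.2 and 46.4 points with long culture in lines 1 and 3. Of 257 distinct member tiles, 7 were listed in all 4 tables, and besides this one the Pcdh10 tile chr3:45381001-45381200 was the only one that gained in each.

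Fstl1 (chromosome 16, 37777055 to 37836516) gained 49.9 points in line 1 and 43.8, 26.9 and 48.3 points in line 3 across its promoter. Vim (chromosome 2, 13574311 to 13582826) gained 28.8, 40.8 and 31.9 points at 3 adjacent tiles in line 1 and 41.1 points at the middle one in line 3. Npy gained 39.1 points upstream of its start in line 1 and 34.5 and 67.8 points at its start in line 3. Crabp1 gained 70.0 points in line 1 and 40.0 and 31.2 points in line 3, at different tiles. Rassf2 lost -22.3 points in line 1 and -100 points in line 3, also at different tiles, and each loss rested on 1 tile.

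Runx3 gained at its inner promoter in long culture. In the 14-month library of line 3, 9 adjacent tiles over the inner promoter, chr4:135152201-135154000, gained 35.7 to 74.0 points with a mean of 58.3, and 0 of its 11 listed tiles lost. In line 1, tiles 245 bp upstream and 955 bp downstream of the inner start site gained 34.1 and 50.3 points, and both were among those that lost methylation with BrafV600E in that line. Line 1 also lost 2 tiles far from the start sites, which made the gene mixed. Pcdh10 (chromosome 3, 45378398 to 45434579) gained at 7 tiles and lost at 1 in line 1 and gained at 10 in line 3, with a mean gain of 38.2 and 55.9 points. Ndrg4 gained 59.2 points in line 1 and 55.0 points in line 3 at the printed promoter, while its other 2 tiles in line 1 lost and line 3 had 6 gained and 1 lost tiles in all.

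Several members gained in line 3 alone. Eya4 had 8 gained tiles there with a mean of 62.9 points, 7 of them adjacent, while line 1 listed 0. Bcat1 (5 tiles, mean 62.8 points), Tmeff2 (4 tiles, mean 67.8), Timp3 (3 tiles, mean 62.2), Penk (3 tiles, mean 45.7), Cnrip1, Sdc2 and Itga4 (2 tiles each) and Wrn (1 tile) had gains and 0 losses in line 3 and 0 tiles in line 1. Mgmt was the member with opposite calls, losing -44.7 points at 1 internal tile in line 1 and gaining 59.3, 64.3 and 40.0 points in line 3, the first at its start. Thbs1 lost -98.2 and -87.5 points at 2 tiles in line 1, and line 3 listed 0. Losses in line 3 alone were seen at Rassf1, Bmp3 and Vipr2, with 1 tile each at -45.8, -28.3 and -40.3 points, and the Rassf1 tile is also within 2 kb of Zmynd10. Cdh13 had 3 lost tiles in line 1 and 7 gained and 3 lost in line 3.

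The remaining members had both directions in at least 1 line. Reck gained 33.0, 31.3 and 35.3 points at 3 adjacent tiles 170 to 570 bp downstream of its start in line 3. Yet an internal tile lost -88.9 points in line 1 and -44.6 points in line 3. Fbn1 gained 23.9 and 34.0 points near its start in line 1 and 38.3, 73.3 and 62.9 points there in line 3, with a single loss 86138 bp inside the gene in line 3. Slit2 had 1 gain of 39.2 points in line 1 and 4 gains and 1 loss in line 3, and Rarb had 1 loss of -38.1 points in line 1 and 5 gains and 1 loss in line 3. Unc5c had 1 gain and 1 loss in line 1 and 3 gains and 1 loss in line 3. Fli1 had 2 gains and 1 loss in line 1 and 6 gains and 2 losses in line 3, per the deposited tables, and Cacna1g had 1 gain and 2 losses in line 1 and 2 gains and 1 loss in line 3. Eya2 had 5 gains and 2 losses and Dapk1 had 2 gains and 1 loss, both in line 3 alone.

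**Figure D3:**
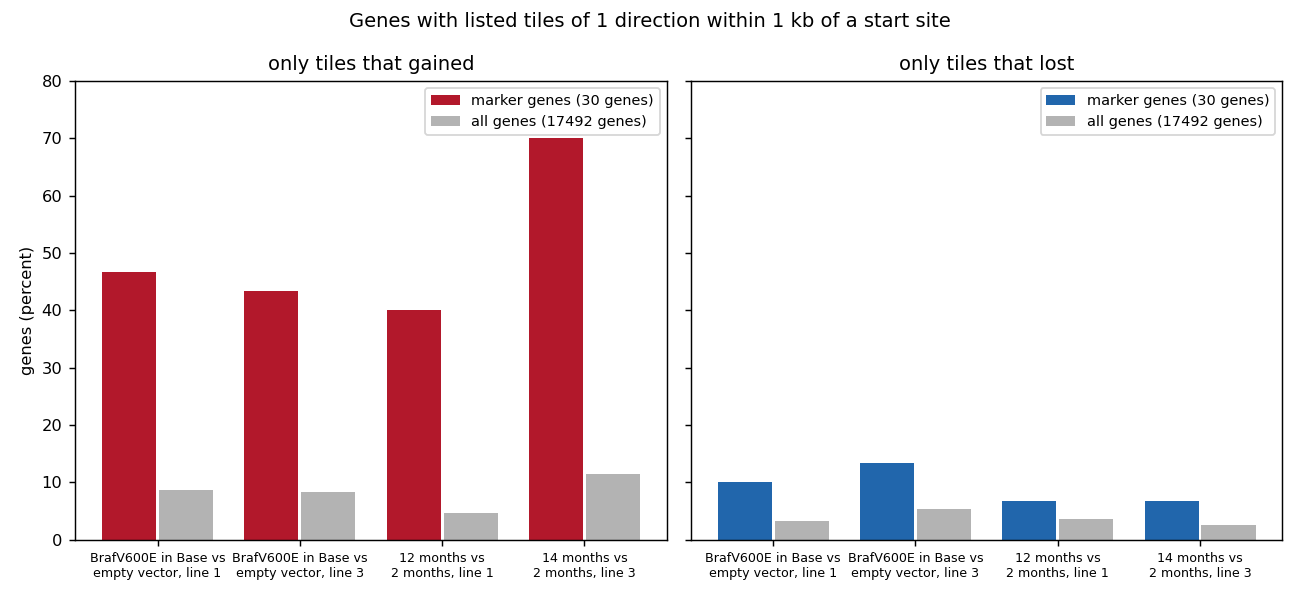
Percent of genes (y axis) whose listed tiles within 1 kb of a start site all gained (left) or all lost (right) in each within-line comparison, for the 30 marker genes with a start site (coloured) and all 17492 genes with one (grey). The coloured bar is highest for gains in the 14-month library, at 70% against 11.5%.

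The windows near start sites do not grow with gene length, although they do with the number of start sites, and the members had 42 over 30 genes against 21263 over 17492 genes. Within 1 kb of a start site, 14 of 30 members were gained in line 1 and 13 in line 3 with BrafV600E, where the background was 8.70% and 8.35% of 17492 genes. With long culture 12 were gained in line 1 and 21 in line 3, and the background was 4.74% and 11.5%. Lost members numbered 3 and 4 with BrafV600E (background 3.18% and 5.29%) and 2 and 2 with long culture (background 3.53% and 2.61%). Since CG-rich promoters are sampled more by this assay, the same was counted over the 8748 genes with a window of 15 or more CG, a limit chosen after seeing the data. Of 22 such members 11 and 10 were gained with BrafV600E in lines 1 and 3, against 12.3% and 11.9% of these genes, and 10 and 17 with long culture, against 7.49% and 16.3%. Coverage of each gene was not used here, and its part in these shares was not tested.

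At start sites the members' tiles in long culture were nearly all gains. In line 3, 69 of 71 tiles within 1 kb of a start site gained, 97.2% (exact Clopper-Pearson 95% interval 90.2 to 99.7), against 89.9% of such tiles over all genes. In line 1 it was 26 of 29, 89.7% (72.6 to 97.8), against 62.0%. With BrafV600E the shares were 75.8% of 33 tiles in line 1 and 70.5% of 44 tiles in line 3, against 78.0% and 64.9% over all genes. Both members' intervals there held the value of all genes. Adjacent tiles are not independent, so the intervals at start sites are too narrow. The 90.2% lower bound in line 3 with long culture lies close to 89.9%, and tiles were not merged here.

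Where the same tile was listed in both lines, its direction was mostly shared. With BrafV600E 25 of 35 such member tiles had 1 direction, 71.4% (exact Clopper-Pearson 95% interval 53.7 to 85.4), against 73.9% of 5934 tiles in all. Of the 22 tiles that gained in both lines 9 were in Runx3, and without Runx3 the share was 64.0% of 25 tiles. With long culture 23 of 27 member tiles, 85.2% (66.3 to 95.8), had 1 direction, against 68.5% of 3220 tiles. Both members' intervals held the value of all tiles.

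The comparisons of 1 line share no library, so tiles listed in both can be set side by side. In line 3, 54 member tiles were listed in both, of which 27 gained in both and 5 lost in both. Another 16 lost with BrafV600E and gained with long culture, and 6 did the reverse. The share with 1 direction was 59.3% (exact Clopper-Pearson 95% interval 45.0 to 72.4), an interval that held the 51.9% of 6964 tiles in all. The opposite tiles are therefore given as a description of the genes. At Tmeff2, which encodes a membrane protein with follistatin-like domains, the tile at -223 bp from the start changed by -100 points with BrafV600E and by 86.7 points with long culture, and its neighbour by -83.3 and 71.4 points. Penk changed by -36.0, -45.9 and -23.9 points at 3 adjacent tiles with BrafV600E and by 57.2, 35.7 and 44.3 points with long culture, in the deposited tables. Ndrg4, Fli1, Cdh13, Rarb, Bcat1, Cnrip1, Cacna1g and Wrn also had tiles of this kind, while every shared tile of Ikzf1 and Hic1 in line 3 gained in both. In line 1, 16 member tiles were listed in both, and 10 of them had opposite directions. The share with 1 direction was 37.5% (15.2 to 64.6), an interval that held the 48.9% of 2384 tiles in all.

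**Figure D4:**
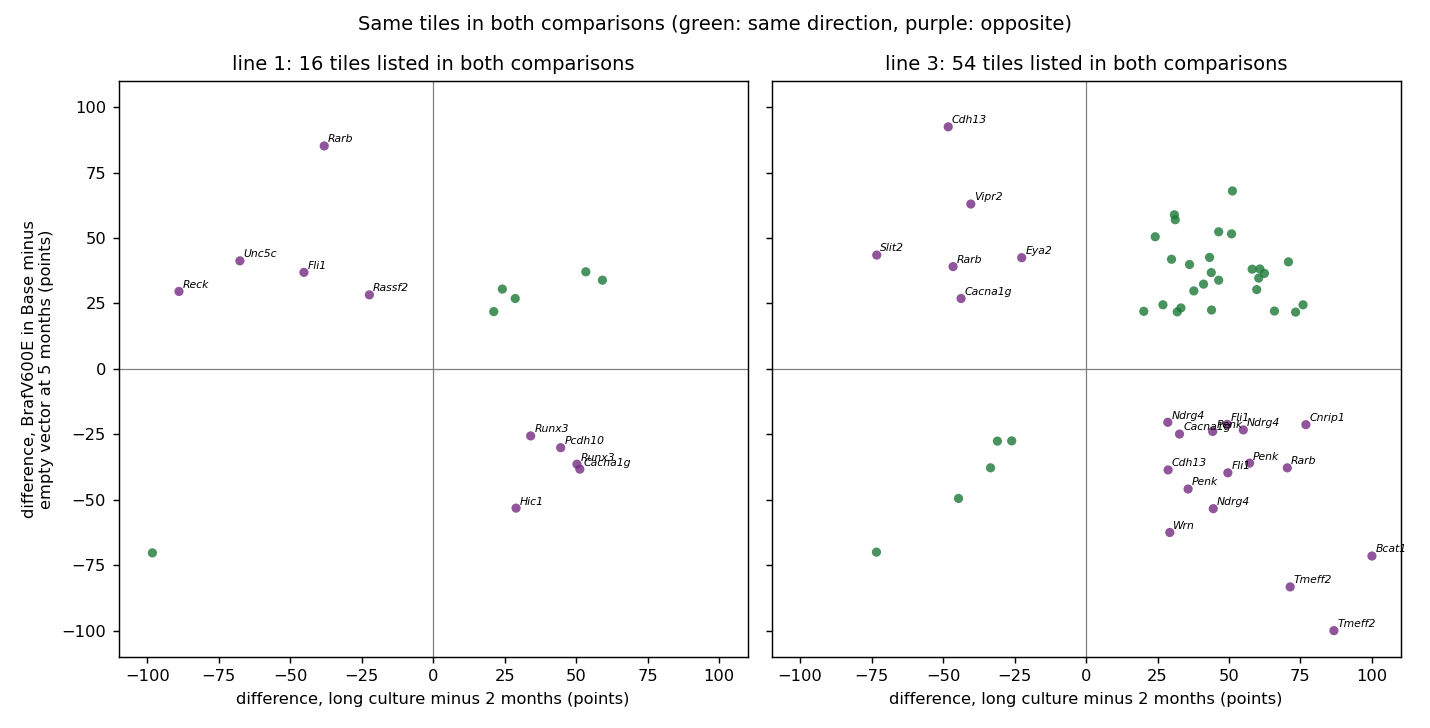
Each point is a member tile listed in both comparisons of 1 line, placed by its deposited difference in percentage points with long culture (x axis) and with BrafV600E (y axis). Green points share a direction (32 of 54 in line 3, 6 of 16 in line 1) and purple points, named by gene, do not. The lower right of the line 3 panel holds the 16 tiles that gained in long culture and lost with BrafV600E, Tmeff2 at the bottom.

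A list of 24 other genes known to be methylated in human colorectal cancer was counted in the same way. With BrafV600E, Irf8 was the gene gained in both lines (background 4.31% of all genes), and 0 were lost in both (background 1.69%). In line 1, 6 were gained and 2 lost, and in line 3, 5 were gained and 6 lost. Of all genes, 13.3% and 12.1% were gained and 6.00% and 11.5% lost in lines 1 and 3. Within 1 kb of a start site, Irf8 was gained in both lines and Cdkn2a lost in both, of 16 genes with one. There 4 and 2 were gained and 1 and 4 lost in lines 1 and 3. The background was 8.70% and 8.35% gained and 3.18% and 5.29% lost. Calls in both lines were not counted over all genes at start sites. With long culture, in the gene plus 2 kb, Gata5 and Id4 were gained in both lines (background 3.03%). In both lines 0 were lost (background 1.16%). Here 6 were gained and 4 lost in line 1, and 7 were gained and 1 lost in line 3. The shares of all genes in lines 1 and 3 were 5.74% and 14.8% gained and 8.06% and 6.71% lost. Within 1 kb of a start site, 3 of the 16 were gained in line 1 and 7 in line 3 with long culture. The background there was 4.74% and 11.5%. Igf2, Gata5 and Tfap2e were gained in both lines. Lost genes numbered 1 in line 1 and 0 in line 3, with a background of 3.53% and 2.61%. No test of a difference between the lists was made.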

How the data were processed

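The authors deposited, for each of 4 within-line comparisons, the 200 bp tiles that gained and, apart, those that lost methylation. Rows hold p-values and q-values and a signed difference in methylation percent per the file headers, and it is positive in the tables of gains, so BrafV600E or aged library minus its control. The submitters' processing notes name the build GRCm38, also called mm10, and the tools methylKit 1.7.4, Bismark 0.14.3, Trim Galore 0.4.4 and FastQC 0.11.7. The sources used here give no coverage minimum. No read counts were used, so the precision of a tile is unknown.

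Tiles were joined to 21887 protein-coding RefSeq genes of GRCm38.p6, whose table has no exons. Start sites came from the RefSeq promoter table. The calling code was tested on simulated data. Python 3.11.15, pandas 2.3.3 and scipy 1.17.1 were used. No test across conditions was made, since the tables list only tiles past the authors' limits, with no level per library and 2 lines per comparison, so counts and medians stand beside those of all genes or tiles. Members, role groups and the list of 24 genes were chosen with earlier results of these data known. Genes with values are those called in 1 direction in both lines, those with opposite calls, the 5 with most tiles and, briefly, the other members. Spg20 stands for its listed alias in the comparison list.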

Additional observations from a re-analysis of the deposited data

Results flagged for a closer look

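The lines had opposite single-direction calls at 4 members, and none of these differences was tested, since each line has 1 library a side. With BrafV600E, the 2 Ndrg4 tiles of line 1 averaged 29.5 points, whereas the 11 of line 3 averaged -48.1 points. Reck had 29.6 points in line 1 and -49.5 points in line 3, at the same single tile. Sdc2 had 29.1 points in line 1 and -57.8 points in line 3, at different tiles. With long culture, Mgmt had -44.7 points at its only tile of line 1, whereas the 3 tiles of line 3 averaged 54.5 points.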

How the results depend on the processing

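No paired analysis was possible because the tables give no value per library and leave out tiles under the authors' limits. The listed differences are already within a line, and no test was made on them. Of 118 alternative values, 84 stayed within the interval of the reported value or within 1.5 times a reported count, 33 moved and 1 changed sign. For BrafV600E, the 8 members gained in both lines became 3 with differences of at least 40 points, 0 with at least 3 tiles per line, and 13 by the majority of tiles. The 3 lost in both became 1 at gene ends, 1 at start sites and 0 with at least 3 tiles. For long culture, the 7 gained in both became 2 with at least 3 tiles and 12 by majority, and the 1 lost became 0 at q under 0.001, at gene ends, at start sites and with at least 3 tiles. These alternative counts in both lines were made for the members only, so no share of all genes at the same setting stands beside them. Calls from 1 line alone gave 12 to 18 gained and 5 to 7 lost members with BrafV600E. With long culture they gave 9 to 19 gained and 4 to 6 lost. At gene ends the gained share of tiles was 90.0% and 64.9% with BrafV600E and 94.4% and 94.4% with long culture in lines 1 and 3, and tiles shared by the lines in long culture had 1 direction in 100% of 11 cases. At start sites it was 70.5% with BrafV600E in line 3, and 89.7% and 97.2% with long culture. In the 14-month comparison the share was 92.1% at q under 0.001 and 75.6% after tiles within 500 bp were merged. The median over member tiles, 33.3 and 22.1 points with BrafV600E and 28.9 and 44.4 with long culture, lies in a distribution with no values under 20 points, so it jumps. With differences of at least 40 points it was 48.7 and -42.2 with BrafV600E, a change of sign in line 3, and 44.1 and 57.1 with long culture. It was 39 at gene ends in line 1 and 51.2 at start sites in line 3 with long culture. Leaving out Runx3 or Cdh13, added after seeing the data, kept every gained share within its interval. Read depth was not used, so it limits every tile to an unknown degree.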
